A study of Mus musculus with 2 samples.

Results

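Alveolar macrophages are the resident phagocytes of the air spaces of the lung, and 361 of 16995 lung cells were taken as such here. A cell was counted when it had 500 to 5000 detected genes, under 7.5% mitochondrial UMIs and under 5% of its UMIs on the neutrophil genes S100a8 and S100a9. It also needed at least 5 UMIs summed over the alveolar macrophage genes Marco, Krt79, Plet1, Atp6v0d2 and Fabp1, at least 5 UMIs of the myeloid lysozyme gene Lyz2, and none of the T and B cell receptor genes Cd3e and Cd79a. A UMI (unique molecular identifier) stands for 1 captured transcript molecule. Of the cells chosen by these UMI counts, 152 lay among 8662 cells of the saline library and 209 among 8333 of the NP library, so the gate genes' own values are a description.

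The cells came from lungs of female BALB/cJ mice that, by the methods, were 12 weeks old when inoculated with an orthotopic tumor. They carried this tumor of 4T1 (4T1-luc2-tdTomato in the methods), a mouse mammary carcinoma line that spreads to the lung, for 14 days. The mice received saline or cargo-free PLG nanoparticles (NPs), particles of poly(lactide-co-glycolide), intravenously every 3 days starting on day 1. Each library was a pool of lungs, from 4 mice by the labels and 5 mice by the methods, dissociated with liberase, and all mice bore tumors, so no tumor-free lung is in the comparison. With 1 library per condition there are no replicates, no test was made, and the intervals printed are 95% intervals that cover counting error only.

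Alveolar macrophages are seeded around birth and maintain themselves largely without monocytes, under the control of GM-CSF, TGF-beta and the lipid sensor PPARg. They clear surfactant lipids, dust and microbes by way of scavenger and lectin receptors and lysosomes, and they present little antigen at rest. They can release chemokines such as those of the CCL3 and CXCL2 type, which draw neutrophils and monocytes into the lung.

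The cells carried the program of their label in both libraries. Of 28 alveolar macrophage genes that the rule did not use, all 28 were detected in both libraries. Ear2, an eosinophil-type ribonuclease, had a UMI in 152 of 152 saline cells and 206 of 209 NP cells, against 4.27% and 9.01% of all other cells. Chil3, a chitinase-like lectin, was found in 99.3% and 99.5%, the lipoprotein lipase gene Lpl in 99.3% and 99.0%, and the mannose receptor gene Mrc1 in 99.3% and 98.6%. Siglecf, the sialic acid receptor used to sort these cells, was detected in 87.5% and 81.8%. Thinned to 3000 UMIs per cell, Siglecf was found in 31.8% and 33.5% of alveolar macrophages and in 0.279% and 0.321% of T cells.

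Marco, the scavenger receptor that names these cells in many lungs, was the exception. It had 17 UMIs in 4 of 152 saline cells and 19 UMIs in 6 of 209 NP cells. The rule was therefore carried by Plet1, a surface glycoprotein found in 100% and 99.0% of cells, by Atp6v0d2, a proton pump subunit found in 100% and 99.5%, and by the fatty acid binding protein gene Fabp1, found in 94.1% and 86.6%. Krt79, a keratin, was found in 38.2% and 38.8%. The fatty acid binding protein gene Fabp4, often among the defining transcripts, had UMIs in only 17.1% and 20.1% of cells. The summed gate markers had a median of 43.5 UMIs per saline cell and 52 per NP cell, and 1 saline and 2 NP cells lay just inside the limit at 5 to 7 UMIs. Just outside, with 3 to 4 UMIs, were 1 saline and 4 NP cells, whose median Ear2 count was 0.

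**Figure D1:**
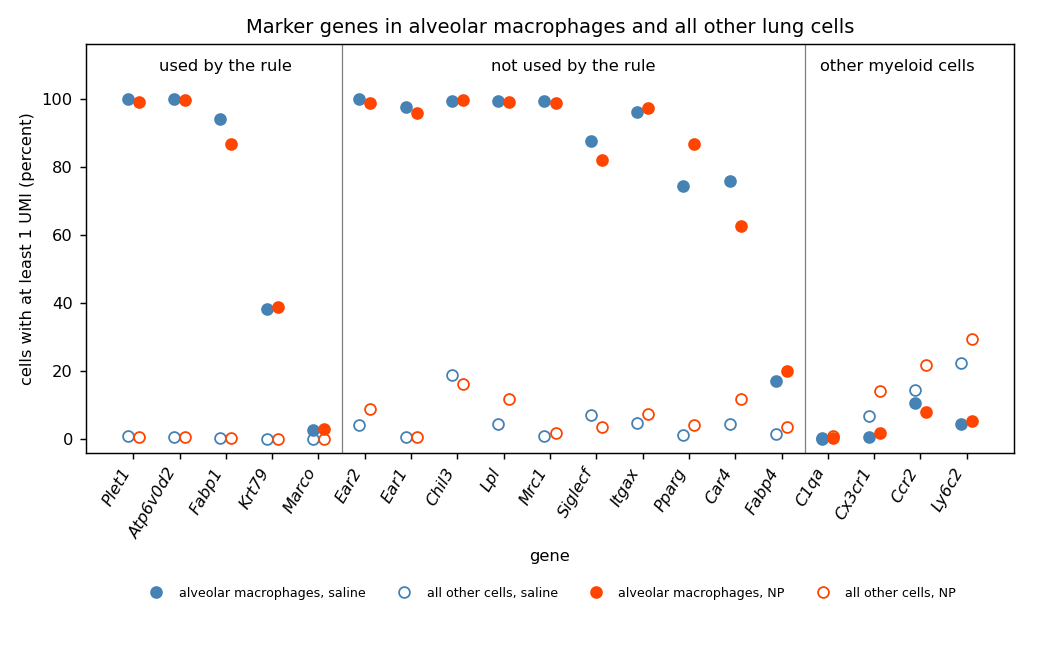
Share of cells with at least 1 UMI (percent, vertical axis) of 19 marker genes (horizontal axis) in alveolar macrophages (filled) and in all other cells (open) of the saline and NP libraries. Ear2, Chil3, Lpl and Mrc1 lie above 98% in both libraries, Marco lies at 2.63% and 2.87%, and C1qa, a marker of interstitial macrophages, lies at 0 and 0.478%.

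Markers of other cell types were scarce in these cells, apart from those of neutrophils. The 18 neutrophil genes summed to 2551 CPM (UMIs scaled to a total of 1000000) in saline and 1470 in NP cells, and S100a9, the most abundant, was found in 100% and 98.6% of them. Of the interstitial macrophage genes, C1qa had 0 saline and 10 NP UMIs, all 10 in 1 cell, and Folr2 and Cd163 were at 0 in both libraries. The 14 genes of that list summed to 298 CPM in saline and 420 in NP cells, nearly all of it from the most abundant, the apolipoprotein gene Apoe. The monocyte genes Ly6c2 and Ccr2 had 8 and 25 saline UMIs and 33 and 65 NP UMIs, and the NP cell richest in each held 18 and 24. Of 10 dendritic cell genes, Xcr1, Cd209a, Siglech and Il4i1 were at 0 in both libraries, and the list summed to 8 saline and 12 NP UMIs, with Ccl22 as the most abundant over both libraries. The 12 monocyte genes summed to 286 and 438 CPM, with Fn1 as the most abundant in saline (304 UMIs) and Nr4a1 in NP cells (759 UMIs). The 18 endothelial and stromal genes summed to 452 and 393 CPM, most of it from Car4, which alveolar macrophages express too, while the endothelial genes Cdh5 and Cldn5 had 0 and 3 saline UMIs and 28 and 45 NP UMIs. Of 15 lymphocyte genes, Ms4a1 was at 0 in both libraries, as were Cd79a and Cd3e by the rule, and the list summed to 44 and 48 UMIs. At least 3 UMIs over markers of monocytes, endothelium, stroma, lymphocytes or dendritic cells were found in 4 saline and 11 NP cells, and doublets were kept.

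Alveolar macrophages were among the deepest cells of the data. The median was 17318 UMIs and 4358 genes per saline cell and 19559 UMIs and 4444 genes per NP cell, against 6474.5 and 6008 UMIs over all cells. The limit of 5000 genes therefore left out 30 saline and 72 NP cells that met every other condition. Together the 152 saline cells held 2681703 UMIs and the 209 NP cells held 4057536, and no barcode was shared between them. If all hemoglobin and other red cell transcripts in these cells were free RNA from the suspension, free RNA made up 0.304% of saline and 0.266% of NP UMIs. The same reckoning gave 0.968% and 0.807% from neutrophil genes, 0.943% and 0.698% from epithelial genes, 1.14% and 0.744% from B cell genes, and 0.621% and 3.07% from endothelial genes. The red cell share, the lowest, is the one used below, and at the other shares the UMIs given to free RNA would be larger in proportion.

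The share of alveolar macrophages was higher in the NP library when counted among all cells and lower when counted among cells other than neutrophils. In the saline library they were 1.75% of all cells (exact binomial, Clopper-Pearson interval 1.49% to 2.05%), and in the NP library 2.51% (2.18% to 2.87%), which gave a log2 ratio, NP over saline, of 0.52 (0.22 to 0.81 by the log-normal interval of a ratio of shares). Among cells with under 5% S100a8 and S100a9, which numbered 3113 and 5190, they were 4.88% (4.15% to 5.70%) and 4.03% (3.51% to 4.60%), a log2 ratio of −0.28 (−0.57 to 0.02). The neutrophil gate held 5549 saline and 3143 NP cells, and numbers of cells per lung were not analysed here.

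Within the alveolar macrophages, most transcripts were at much the same level in both libraries. Of 8278 genes with at least 50 UMIs, 38 were at least 2-fold higher in NP cells, which is 0.459%, and 28 were at least 2-fold lower, which is 0.338%. The median log2 ratio of CPM was −0.04, and the middle range of genes ran from −0.19 to 0.10. The same rule of size gave 2.13% higher and 0.679% lower genes in classical monocytes of these libraries, 2.19% and 2.03% in C1q macrophages, and 6.64% and 0.884% in neutrophils, which differ in cell number and total UMIs. With a minimum of 200 UMIs, 7 of 4731 genes were higher (0.148%) and 3 were lower (0.0634%). In each ratio a count under 3 was set to 3.

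The cells' own program was among the parts whose ratios lay near 0. The 28 identity genes had a median log2 ratio of 0.01, and 17 of 28 were above 0, against 41.8% of all genes with at least 20 UMIs. None was past 2-fold, which is near the share of all genes (1.33% higher and 1.53% lower). Pparg, the transcription factor that directs lipid handling here, was counted at 269 UMIs in saline and 533 in NP cells (ratio 0.39, interval 0.17 to 0.61). Fabp5, a lipid chaperone, had 885 and 1694 UMIs (ratio 0.34, interval 0.22 to 0.46). Car4, a carbonic anhydrase, had 852 and 1033 UMIs (ratio −0.32, interval −0.45 to −0.19), and Chil3 had a ratio of −0.27 (−0.30 to −0.24). Pparg, Fabp5 and Car4 had the largest ratios of the 28 genes, and Chil3 had the most UMIs.

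**Figure D2:**
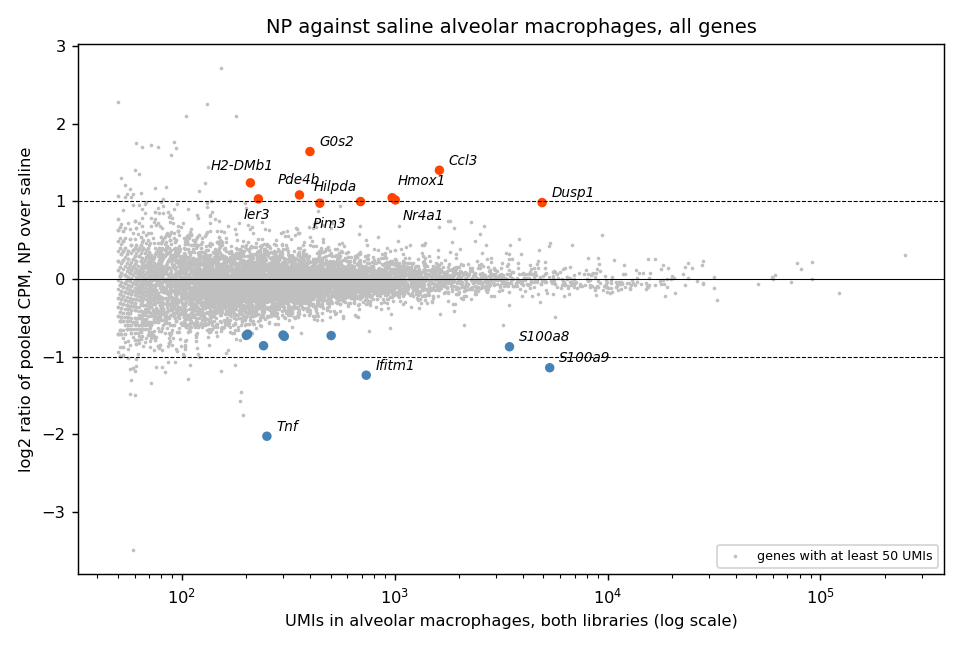
Log2 ratio of pooled CPM, NP over saline (vertical axis), against the UMIs of each gene in both libraries (horizontal axis, log scale) for 8278 genes with at least 50 UMIs in alveolar macrophages. Coloured points are the 10 highest and 10 lowest ratios among genes with at least 200 UMIs, and dashed lines mark 2-fold. Dusp1 lies at 0.98 and S100a9 at −1.14, while the middle range of all genes runs from −0.19 to 0.10.

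Of the 10 highest ratios among genes with at least 200 UMIs, those of Dusp1, Nr4a1, Pde4b, Hilpda and Pim3 were spread over many NP cells. Hmox1 and G0s2, of the same 10, had most of their NP UMIs in few cells, as given below. Dusp1, a phosphatase that switches off MAP kinases (GRCm38 chromosome 17, 26505590 to 26562128), was counted at 1235 UMIs in saline and 3692 in NP cells (log2 ratio 0.98, interval 0.89 to 1.08). The median cell held 3.42 Dusp1 UMIs per 10000 in saline and 6.21 in NP, the cell at the 90th percentile held 11.1 and 19.7, and 45 saline against 121 NP cells held at least 10 UMIs. The distributions overlapped, with the NP cells higher at each of these points.

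Nr4a1, an orphan nuclear receptor that is switched on early after stimulation (chromosome 15, 101254269 to 101274795), had 248 and 759 UMIs (ratio 1.02, interval 0.81 to 1.23). After every cell was thinned to 12000 UMIs, it was detected in 38.6% of the 145 that remained in saline (30.7% to 47.1%) and 72.6% of the 201 in NP (65.9% to 78.7%), and before thinning in 47.4% and 78.0%. Thinning left out 7 saline and 8 NP cells. At the red cell share, free RNA would give 1.81 of the saline and 4.79 of the NP Nr4a1 UMIs.

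The same pattern held for 3 further genes of the 10 highest. Pde4b, a phosphodiesterase that breaks down cyclic AMP (chromosome 4, 102087543 to 102607259), had 85 and 272 UMIs (ratio 1.08, interval 0.72 to 1.45), and was found in 28.3% and 51.7% of thinned cells (36.8% and 61.7% unthinned). Hilpda, a lipid droplet protein that blocks triglyceride breakdown (chromosome 6, 29272488 to 29275446), had 172 and 519 UMIs (ratio 1.00, interval 0.74 to 1.25), and was found in 37.9% and 62.7% (42.8% and 73.7% unthinned). Pim3, a serine and threonine kinase that promotes survival (chromosome 15, 88862186 to 88865726), had 112 and 333 UMIs (ratio 0.97, interval 0.66 to 1.30), and was found in 39.3% and 57.2% (48.0% and 67.0% unthinned). With the 5 cells richest in each gene left out of each library, the ratios of Dusp1, Nr4a1, Pde4b, Hilpda and Pim3 were 1.03, 1.27, 1.21, 1.29 and 1.12. Cells were also thinned to 3000 UMIs to compare with T cells. Pde4b was then found in 12.58% (saline) and 17.96% (NP) of alveolar macrophages, against 20.67% and 21.47% of T cells. Pim3 was found in 7.95% and 19.42%, against 3.63% and 8.97%, so its share was higher in NP T cells too. Nr4a1 was found in 16.56% and 41.26%, against 19.55% and 17.31%. Hilpda was found in 13.91% and 24.27%, against 9.78% and 11.22%, and Dusp1 in 58.94% and 81.07%, against 40.50% and 45.83%.

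Dusp1 and Nr4a1 belong to a list of 24 genes that tissue dissociation is known to switch on, and other members of it were higher too. Of 23 with at least 20 UMIs, 18 had a ratio above 0 (41.8% of all genes with that minimum did) and 3 were at least 2-fold higher (1.33% of all genes), and the median was 0.36. Atf3, a stress transcription factor, had 561 and 1335 UMIs, a ratio of 0.65, and Junb had 1219 and 2637, a ratio of 0.52, both named after their values were seen. Fos was at 0.27 (0.20 to 0.34), while Egr1, another early gene, had 316 and 344 UMIs, a ratio of −0.47. The list summed to 7614 CPM in saline and 9477 in NP cells with Hspa8 as the most abundant gene over both libraries, and its part in the ratios above was not tested. In the same libraries Dusp1 had ratios of −0.15 in C1q macrophages, 0.36 in classical monocytes and 0.49 in neutrophils, and Nr4a1 had 0.24, 0.49 and 0.58.

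The promoters of the pair are shown because both windows hold letters of the cyclic AMP response element (CRE). The windows are the 250 bases before the RefSeq gene start on GRCm38.p6, written 5′ to 3′ on the strand of the gene, with the core letters TGACG or their complement CGTCA in capitals. Dusp1 lies on the minus strand at chr17:26508473-26508722 and Nr4a1 on the plus strand at chr15:101266596-101266845.
Dusp1: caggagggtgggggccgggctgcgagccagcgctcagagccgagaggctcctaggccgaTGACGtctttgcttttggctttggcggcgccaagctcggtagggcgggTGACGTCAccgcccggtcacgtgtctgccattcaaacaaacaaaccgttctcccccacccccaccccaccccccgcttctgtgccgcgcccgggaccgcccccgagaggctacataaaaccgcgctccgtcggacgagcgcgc
Nr4a1: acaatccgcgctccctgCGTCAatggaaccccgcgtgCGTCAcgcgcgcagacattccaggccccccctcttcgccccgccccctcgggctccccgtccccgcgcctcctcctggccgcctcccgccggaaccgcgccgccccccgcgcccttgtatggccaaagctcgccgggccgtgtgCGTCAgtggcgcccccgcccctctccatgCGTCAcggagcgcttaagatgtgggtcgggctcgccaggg
The full element TGACGTCA, searched on both strands, is in the Dusp1 window, where it begins 143 bases before the start, and in 1.55% of 32851 windows of this length. The core TGACG, which is part of the full element and was searched after the matches of the full one were seen, occurs 3 times in Dusp1, counting the full element on each strand, and 4 times in Nr4a1. It is in 17.8% of all windows, and by gene in 5347 of 27025. Of the 10 highest genes, 9 matched the promoter table with 13 windows, and 5 of them (Dusp1, G0s2, Hilpda, Nr4a1 and Pde4b) held the core in 6 windows. The Hilpda windows among these overlap and share a site. Of the 10 lowest genes, 9 matched and none held the core. The IFN-gamma element TTCNNNGAA was in Pde4b of the 9 highest genes, against 7.02% of all windows, and TGACNNNGC, bound by NRF2, was in Dusp1 of the highest and Ell of the lowest genes, against 10.2%. A match of letters is a description and not a binding site.

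Chemokine and NF-kB genes were higher in NP alveolar macrophages as a group. Of 38 such genes with at least 20 UMIs, 34 had a ratio above 0 (41.8% of all genes did) and 10 were at least 2-fold higher (1.33% of all genes), with a median of 0.37. The same list had medians of 0.43 in C1q macrophages, 0.53 in classical monocytes and 0.62 in neutrophils of these libraries. Without alveolar macrophages called as doublets by Scrublet the median was 0.19, and with 1 Scrublet threshold for both libraries it was 0.20. Ccl3, a chemokine that attracts monocytes and neutrophils (chromosome 11, 83647844 to 83649355), was counted at 325 UMIs in saline and 1297 in NP cells (log2 ratio 1.40, interval 1.22 to 1.58). It was found in 35.2% and 51.7% of thinned cells (36.2% and 56.5% unthinned), and 9 of 152 cells in saline against 42 of 209 in NP held at least 10 UMIs. In T cells thinned to 3000 UMIs, with median depths of 6581 and 6870.5 UMIs, it was found in 1.96% and 0.641%, against 12.6% and 35.0% of alveolar macrophages at that depth.

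Cxcl2, a chemokine for neutrophils, had 645 and 1626 UMIs (ratio 0.74, interval 0.60 to 0.87), and 5 saline cells held 373 of the 645. Without the 5 richest cells of each library its ratio was 1.62. Ccl4, a close relative of Ccl3, had 159 and 315 UMIs (ratio 0.39, interval 0.11 to 0.67), and 1.93 without such cells. Cxcl1, another neutrophil chemokine, had 6 and 44 UMIs (ratio 2.28, interval 1.04 to 3.80), and Ier3, a survival gene under NF-kB, had 56 and 173, a ratio of 1.03 (0.59 to 1.49). Ier3 is on the dissociation list as well. Thinned to 3000 UMIs, it was found in 5.30% and 10.2% of alveolar macrophages and in 3.07% and 6.09% of T cells. The Cxcl2 and Ccl4 transcripts of saline cells thus lay mostly in few cells.

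Several inflammasome, cytokine and signaling members of the list had ratios under 2-fold. Nlrp3, the inflammasome sensor, had 159 and 404 UMIs (ratio 0.75, interval 0.48 to 1.02), and Malt1, a protease upstream of NF-kB, had 304 and 740, a ratio of 0.69 (0.49 to 0.88). Il1a had 234 and 503 UMIs (ratio 0.51, interval 0.28 to 0.74), whereas Il1b had 1068 and 1743, a ratio of 0.11 (−0.002 to 0.22). Ccl6, a chemokine with the most UMIs of the list, had a ratio of 0.18 (0.14 to 0.22), and Tnfaip2, a TNF response gene, had 1731 and 3615 UMIs (ratio 0.46, interval 0.38 to 0.55). Cxcl2, Ccl4, Nlrp3, Malt1, Il1a and Il1b were named after their values were seen. Of the sensors that feed this pathway, Cd14, the endotoxin co-receptor, had 476 and 1140 UMIs (ratio 0.66, interval 0.51 to 0.82).

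Tnf was lower in NP cells, and by way of very few cells. It was counted at 183 UMIs in saline and 68 in NP cells (log2 ratio −2.03, interval −2.45 to −1.62), the lowest among genes with at least 200 UMIs. A single saline cell held 84 of them and 5 held 155, while 16.4% of saline and 17.2% of NP cells had a UMI at all. Without the 5 richest cells of each library the ratio was −0.08.

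**Figure D3:**
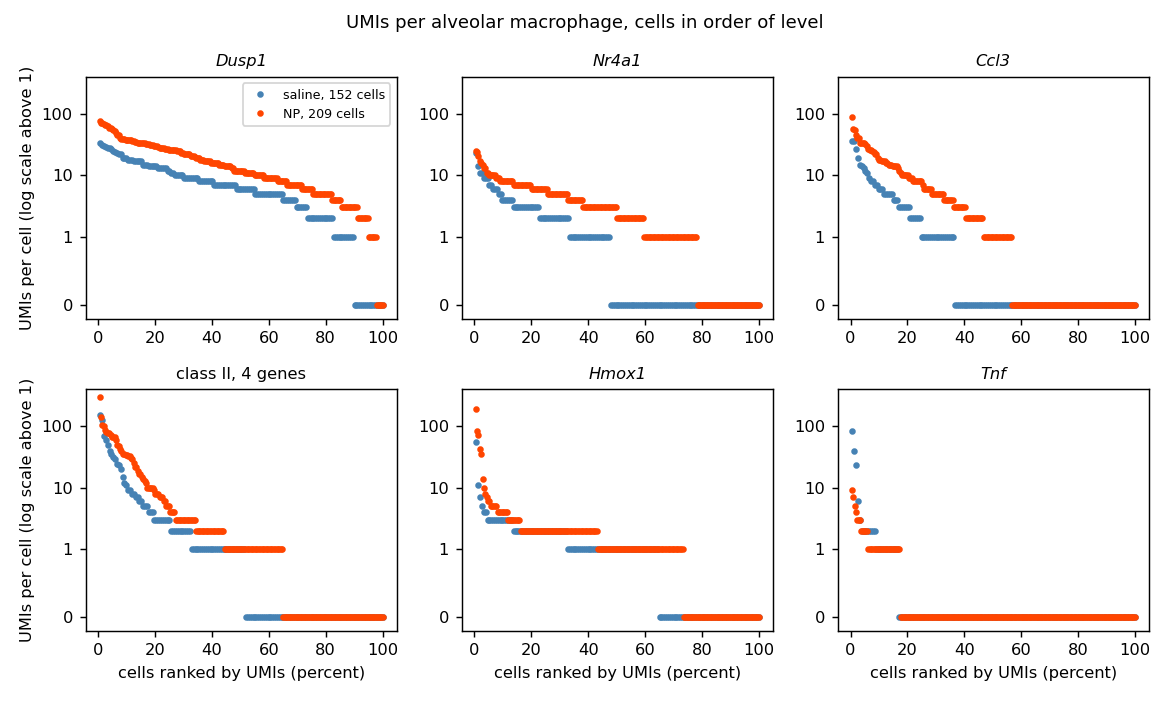
UMIs per alveolar macrophage (vertical axis, log scale above 1) with cells in order from highest to lowest (horizontal axis, percent of cells) for 5 genes and for the sum of the class II genes H2-Aa, H2-Ab1, H2-Eb1 and Cd74, in 152 saline and 209 NP cells. Dusp1, Nr4a1 and Ccl3 are higher in NP at nearly every rank with a UMI, whereas Hmox1 and Tnf part from the other library in the richest few cells.

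Hmox1 and its companions were high in a handful of NP cells. Hmox1, the heme oxygenase that breaks down heme under the control of NRF2 (chromosome 8, 75093621 to 75100589), was counted at 236 UMIs in saline and 737 in NP cells (log2 ratio 1.05, interval 0.83 to 1.26). In the NP library 5 cells held 190, 84, 73, 42 and 36 UMIs, 425 in all, and the next held 14, while the saline library had 1 cell with 56 and the next with 11. The median cell held 0.580 UMIs per 10000 in saline and 0.602 in NP.

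The 5 NP cells carried other genes of the oxidative and metal response. They held 97 of 139 UMIs of Slc7a11, the cystine importer, 56 of 107 of the sulfiredoxin gene Srxn1 and 2232 of 6549 of the metallothionein gene Mt1. They had 0 UMIs of Siglecf and Krt79, 3 to 19 UMIs each of Plet1 and 0 to 15 of Ear2, against a mean of 1856 CPM of Ear2 in the other NP cells and 337 in these. Lpl, the lipoprotein lipase gene, was at 2099 CPM in them and 2343 in the other NP cells. Their C1qa and Ccr2 counts were 0, and they held 1 of 33 Ly6c2 UMIs. The saline cell with 56 Hmox1 UMIs also had 292 of Mt1 and 0 of Siglecf, but 29 of Ear2. These cells were singled out after their values were seen, and what they are was not tested.

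The list of 25 oxidative and metal genes had a median of 0.21, with 17 of 22 above 0, against 41.8% of all genes with at least 20 UMIs. Hmox1 and Slc7a11 were at least 2-fold higher, against 1.33% of all genes, and Slc7a11 had 14 and 139 UMIs (ratio 2.71, interval 1.92 to 3.62). Scrublet, which scores cells against simulated doublets, called 13 NP alveolar macrophages, and these held 439 of the 737 Hmox1 UMIs. Without the called cells Hmox1 had a ratio of −0.16 and the list a median of −0.04. Scrublet called only 1 saline cell, and with its NP threshold used in both libraries, which removed 6 saline alveolar macrophages, the values were −0.17 and −0.04. With the 5 cells richest in each gene left out of each library instead, they were 0.43 and 0.19. Fth1 and Ftl1, the ferritin chains that store iron, had 32940 and 57901 UMIs and 28380 and 49466 UMIs, ratios of 0.22 (0.20 to 0.24) and 0.20 (0.18 to 0.23).

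Antigen presentation genes of class II were higher in NP cells, from a low base. Over H2-Aa, H2-Ab1, H2-Eb1 and Cd74, the chains of the class II molecule and its chaperone, the saline cells held 859 UMIs and the NP cells 2195. At least 10 of these UMIs were found in 15 saline cells (9.87%) and 40 NP cells (19.1%), and the median cell in both libraries held 1. H2-Aa (chromosome 17, 34282744 to 34287823) had 142 and 411 UMIs (log2 ratio 0.94, interval 0.66 to 1.22), and Cd74 had 514 and 1298, a ratio of 0.74 (0.59 to 0.89). H2-DMb1, which loads peptides onto class II (chromosome 17, 34153072 to 34160230), had 46 and 164 UMIs (ratio 1.24, interval 0.76 to 1.74), which was 0.18 with a mitochondrial limit of 5%.

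Of the 9 class II list genes with at least 20 UMIs, 6 were above 0 (41.8% of all genes were) and 1 was at least 2-fold higher (1.33% of all genes), with a median of 0.50. The processing genes Ctss and Ifi30, which are abundant in these cells, had ratios of 0.14 (0.10 to 0.18) and −0.02 (−0.13 to 0.10). Thinned to 3000 UMIs, class II UMIs occurred in 24.5% (saline) and 30.1% (NP) of alveolar macrophages and in 11.2% and 19.6% of T cells, which should have few. The 11 NP cells with markers of other types held 425 of the 2195 class II UMIs, and the 4 saline cells held 37 of 859. The median was 0.14 without those cells, 0.14 with a mitochondrial limit of 5% and 0.06 with cells of up to 7500 genes, where class II made up 0.0679% of saline and 0.0775% of NP UMIs, against 0.0320% and 0.0541% under the limit of 5000.

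Class I genes differed little in size between the libraries. The 22 class I list genes had a median of 0.07, with 17 above 0, against 41.8% of all genes with at least 20 UMIs. None was past 2-fold, which is near the share of all genes (1.33% higher and 1.53% lower). H2-K1 had 1357 and 2559 UMIs (ratio 0.32, interval 0.22 to 0.41), H2-D1 had a ratio of 0.18 (0.14 to 0.23), and the light chain gene B2m had 0.17 (0.12 to 0.23).

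Interferon response genes were near the level of the saline cells in alveolar macrophages, beside larger ratios in the neutrophils and monocytes of the same libraries. The 33 IFN-gamma response genes with at least 20 UMIs had a median log2 ratio of 0.18. Of these, 23 were above 0, 3 at least 2-fold higher and 1 at least 2-fold lower, against 41.8%, 1.33% and 1.53% of all genes with that minimum. The same list had medians of 0.37 in C1q macrophages (23 saline and 43 NP cells), 1.14 in classical monocytes (505 and 1023 cells) and 1.80 in neutrophils. The type I interferon list had a median of 0.19 in alveolar macrophages (20 of 27 above 0 and 2 at least 2-fold higher, against the same shares of all genes), and 0.34, 0.49 and 1.31 in the others. The populations share their libraries, and the differences between them were not tested.

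Single interferon genes differed in direction. Cxcl10, a chemokine for T cells, had 52 and 7 UMIs (ratio −3.49, interval −4.87 to −2.35), and 1 saline cell held 51 of the 52. Gbp2b, a guanylate binding protein that IFN-gamma switches on (chromosome 3, 142594847 to 142619179), had 42 and 127 UMIs in alveolar macrophages, a ratio of 1.00 (0.49 to 1.54), with 22 of the NP UMIs in 1 cell, and ratios of −0.90 in C1q macrophages, 2.85 in monocytes and 2.55 in neutrophils. Reads of Gbp2b and its neighbour Gbp2 may be split in error. Gbp4 had 0 and 21 UMIs, and Irf1, an early factor of this pathway named after its values were seen, had 73 and 109, a ratio of −0.02. Ly6e, a type I response gene, had 15 and 77 UMIs (ratio 1.76, interval 0.95 to 2.67), while Isg15 had 49 and 50, a ratio of −0.57 (−1.17 to 0.03), and 1 saline cell held 39 of the 49. Without the cells called by Scrublet the medians were −0.07 for the IFN-gamma list and 0.02 for the type I list, and with a mitochondrial limit of 5%, which kept 63 saline and 89 NP cells, both were −0.02. With 1 Scrublet threshold for both libraries they were −0.065 and 0.096, and with cells of up to 7500 genes 0.32 and 0.47.

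**Figure D4:**
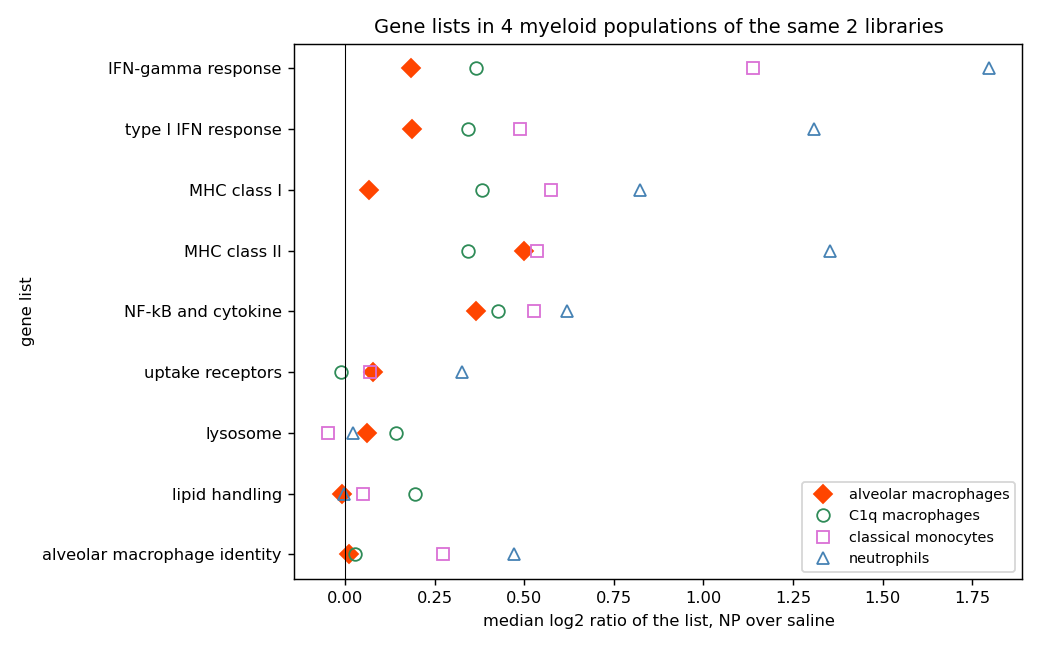
Median log2 ratio of CPM, NP over saline (horizontal axis), of 9 gene lists (vertical axis) in alveolar macrophages, C1q macrophages, classical monocytes and neutrophils of the same libraries, over list genes with at least 20 UMIs. The IFN-gamma list lies at 0.18 in alveolar macrophages, 1.14 in monocytes and 1.80 in neutrophils, and the lysosome list lies between −0.05 and 0.14 in all 4.

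For the housekeeping work of the alveolar macrophage, uptake and breakdown of lipid and debris, the list medians lay near 0. The 46 lipid genes had a median log2 ratio of −0.01 with 22 above 0, against 41.8% of all genes with at least 20 UMIs. None was past 2-fold in either direction, which is near the share of all genes (1.33% higher and 1.53% lower). Lpl was counted at 6217 UMIs in saline and 9478 in NP cells (ratio 0.01, interval −0.04 to 0.06), Abcg1, the cholesterol exporter, had −0.05 (−0.10 to 0.003), and the lipid droplet coat gene Plin2 had −0.02 (−0.07 to 0.04). The sterol and fatty acid synthesis genes Fdft1 and Fasn had 68 and 74 UMIs and 64 and 71 UMIs, with ratios of −0.48 (−0.97 to 0.02) and −0.45 (−0.96 to 0.06). Apoe stood at 0.48 (0.36 to 0.61), with UMIs in 25.7% and 30.6% of cells. Hilpda (ratio 1.00) and G0s2 (ratio 1.64), which inhibit triglyceride breakdown, are not on this list.

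The 40 lysosome genes had a median of 0.06, with 27 above 0 (41.8% of all genes were). None was past 2-fold, again near the share of all genes (1.33% higher and 1.53% lower). Ctsd, the main aspartic protease, had 12492 and 19210 UMIs (ratio 0.02, interval −0.01 to 0.06), and Psap, the activator of sphingolipid breakdown, had 0.20 (0.17 to 0.24). Cd68, a lysosomal glycoprotein, had 0.32 (0.22 to 0.42), and Tfeb, the factor that switches on lysosome genes, had 104 and 205 UMIs (ratio 0.38, interval 0.03 to 0.74).

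The 33 uptake receptor genes had a median of 0.08 with 21 above 0, again against 41.8% of all genes. Mrc1 had a ratio of −0.07 (−0.14 to −0.01), and Fcer1g, the shared chain of activating Fc receptors, had 0.08 (0.02 to 0.14). Clec4d, a lectin that senses microbial lipids, had 50 and 149 UMIs (ratio 0.98, interval 0.51 to 1.47), with 20 of the NP UMIs in 1 cell, and Fcgr2b, the inhibitory Fc receptor, had 55 and 124, a ratio of 0.58 (0.11 to 1.06).

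Of the transcripts of neutrophils, S100a8 and S100a9 were the most abundant, and both had lower levels in NP alveolar macrophages. S100a9 was counted at 3175 UMIs in saline and 2174 in NP cells (log2 ratio −1.14, interval −1.22 to −1.06), and S100a8 had 1896 and 1566, a ratio of −0.87 (−0.97 to −0.78). The median cell held 5.21 S100a9 UMIs per 10000 in saline and 2.32 in NP. The 5 richest cells held 1827 of the saline and 1188 of the NP UMIs of S100a9. The rule limits the sum of both genes in each cell, so their values are a description, and with no such limit the ratio of S100a9 was −0.50. All 18 neutrophil genes of the list were detected, and 2 of 16 with at least 20 UMIs, which include S100a8 and S100a9, were above 0, against 41.8% of all genes with that minimum. Without S100a8 and S100a9, a choice made after the values were seen, the other 16 genes summed to 660 CPM in saline and 549 in NP cells, a log2 ratio of −0.27 (−0.36 to −0.18). The whole list summed to 2551 and 1470 CPM, against 219146 and 129837 CPM in the free RNA of barcodes with under 50 UMIs. Free RNA subtracted at the red cell share gave −1.18 for S100a9, subtraction at the larger share from neutrophil genes was not run, and the part of free RNA in these ratios was not tested further.

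Ifitm1, an interferon-induced membrane protein that made up 7041 and 2909 CPM of the free RNA, had 448 and 287 UMIs (ratio −1.24, interval −1.46 to −1.02), and 5 cells held 321 of the 448 saline UMIs and 5 held 198 of the 287 NP UMIs. Thinned to 3000 UMIs it was detected in 15.2% (saline) and 6.31% (NP) of alveolar macrophages and in 24.6% and 10.9% of T cells, so its share was not above that of T cells in either library. At the red cell share, free RNA would give 57.4 of the saline and 31.4 of the NP UMIs. G0s2, an inhibitor of triglyceride breakdown with the highest ratio among genes with at least 200 UMIs at 1.64 (1.26 to 2.03), is on the neutrophil list as well. It had 70 and 330 UMIs, of which 5 NP cells held 222, and thinned to 3000 UMIs it was found in 7.28% and 10.2% of alveolar macrophages and 7.82% and 6.09% of T cells. Thinned to 12000 UMIs, 27.6% of saline and 23.9% of NP alveolar macrophages held it, against 32.2% and 35.4% before thinning. Another random draw at that depth gave 23.4% and 23.9%, so the thinned share depends on the draw. Without the 5 richest cells the G0s2 ratio was 0.49.

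Cell cycle genes were lower in NP cells, while the shares of cycling cells lay close together. None of the 23 genes of that list with at least 20 UMIs was above 0, against 41.8% of all genes with that minimum. Their median was −0.83, and 8 were at least 2-fold lower, against 1.53% of all genes. The median cell spent 0.114% of its UMIs on the list in saline and 0.112% in NP. Stmn1, a tubulin regulator, had 92 and 61 UMIs (ratio −1.19, interval −1.68 to −0.71), and the replication gene Mcm6 had 45 and 27, a ratio of −1.33 (−2.08 to −0.61). Of 339 saline UMIs over 14 mitosis genes 3 cells held 233, while in NP 3 cells held 97 of 235. Birc5, which encodes survivin, had 35 and 24 UMIs, of which 1 saline cell held 23. In saline 8 of 152 cells and in NP 12 of 209 held at least 3 UMIs over these 14 genes, and after thinning to 12000 UMIs 5 of 145 (3.45%, 1.13% to 7.86%) and 8 of 201 (3.98%, 1.73% to 7.69%) did. Among the cells left out for over 5000 genes, 8 of 30 saline and 16 of 72 NP cells passed the same count. With cells of up to 7500 genes the list median was −0.43, and without the 5 richest cells of each gene it was −0.47.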

How the data were processed

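Single lung cells were captured on the 10x Genomics platform, in 1 library per condition. The deposited raw matrices hold UMI counts per gene and barcode, made by the authors with Cell Ranger (version 6.0 by the submitters' processing notes, 4 by the matrix header) against the mouse genome mm10 (GRCm38). The matrices list 32285 genes and hold 91168129 (saline) and 90081747 (NP) UMIs. Cells with 500 to 5000 genes and under 7.5% mitochondrial UMIs were kept, and the rule for alveolar macrophages was applied to these. The members and the gene lists were chosen with earlier results of these data known.

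UMIs were summed over the cells of a library and scaled to CPM, and the log2 ratio of NP over saline was given an exact conditional binomial interval. Genes named are the gate genes, the 10 with the most UMIs, the 10 highest and 10 lowest ratios with at least 200 UMIs, and, in each list, the 3 with the most UMIs and the 3 largest ratios with at least 50 UMIs. Not every gene that meets this rule is printed, and genes printed outside it were chosen after their values were seen. C1q macrophages needed at least 5 UMIs of the C1q genes, classical monocytes at least 2 of Ly6c2 and 1 of Ccr2, and T cells at least 2 of Cd3e. Free RNA was taken from barcodes with under 50 UMIs, and its share in the cells from red cell genes. Thinning drew 12000 UMIs per cell, or 3000 to compare with T cells. Doublets were kept, and Scrublet, which called 1 saline cell and so did not work there, was an alternative. Counting and thinning were tested on simulated data. Alternatives covered the cell limits, the marker minimum, weighting, centring, free RNA and the richest cells. The software was scanpy 1.11.5 for Scrublet, scipy 1.17.1 for intervals, and pandas 2.3.3, matplotlib 3.10.9 and numpy 2.4.6 under Python 3.11.15. The intervals printed cover counting error only, since pools of mice differ in ways that 1 library cannot show.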

Additional observations from a re-analysis of the deposited data

Results flagged for a closer look

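Cxcl10, an interferon-induced chemokine, was lower in NP alveolar macrophages and higher in NP monocytes and neutrophils. Its log2 ratio was −3.49 in alveolar macrophages against 2.26 in classical monocytes and 5.60 in neutrophils, while C1q macrophages had 4 UMIs in each library, a ratio of −1.20 (−3.63 to 1.22). In alveolar macrophages 1 saline cell held 51 of 52 saline UMIs. Mcm6, a helicase subunit of DNA replication, had a ratio of −1.33 in alveolar macrophages and 1.06 in neutrophils. With 1 library per condition, these differences between cell types were not tested.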

How the results depend on the processing

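Each condition had 1 library, so no replicate could be left out and differences between mice cannot be told apart from the treatment. No paired analysis was possible because each condition had 1 library and the labels give no replicate numbers. Genes with few UMIs have wide counting intervals. The count of genes at least 2-fold higher in NP, 38, was 73 with up to 7500 genes per cell, 64 in thinned cells, 95 without the 5 richest cells of each gene, and 129 and 7 with minimums of 20 and 200 UMIs. It was 21 without Scrublet doublets and 28 with 1 Scrublet threshold for both libraries. The count of lower genes, 28, was 73 in thinned cells and 149 and 3 with these minimums. The IFN-gamma median was −0.017 with a mitochondrial limit of 5%, −0.075 without Scrublet doublets and −0.065 with 1 threshold for both libraries. The type I median was 0.47 with up to 7500 genes, −0.017 with the 5% limit and 0.021 without doublets (0.096 with 1 threshold). The lysosome median was 0.13 with the 5% limit and 0.10 both after centring and without the richest cells. The oxidative median was −0.038 without doublets and −0.041 with 1 threshold. The class II median was 1.09 without the richest cells. The cell cycle median was −0.43 with up to 7500 genes, −1.27 without doublets (−0.82 with 1 threshold) and −0.47 without the richest cells. The share ratio was −0.28 among cells under 5% S100a8 and S100a9. Among ratios of at least 2-fold, the sign changed for Plac8 (2.10 with 24 and 156 UMIs, −0.81 with the 5% limit). It also changed for Birc5 (0.41 and 0.55 with marker minimums of 10 and 20 UMIs) and Hmox1 (−0.16 without doublets, −0.17 with 1 threshold). Without doublets the Plac8 ratio was 0.09, with its sign unchanged. Over all alternatives, 289 summary values stayed within their interval, or 1.5 times for counts of genes, and 25 did not. For list medians this interval came from the spread of the ratios in the list and not from counting error. It is wide for short lists, and the class II median of 0.06 with up to 7500 genes, against 0.50, counted as within it. Of single gene ratios 1796 stayed within their interval, 251 did not, and 5 of at least 2-fold changed sign. Sign changes of smaller ratios were not counted apart. The alternatives that left out the richest cells, cells with markers of other types or cells above 1 Scrublet threshold, and all those of the cell cycle and dissociation lists, were chosen after seeing the data. Why these values moved was not tested.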

Other observations

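Glycolysis genes were at much the same level in both libraries, with a median log2 ratio of 0.03 over 20 genes and 11 above 0, against 41.8% of all genes with at least 20 UMIs. Genes of alternative activation had a median of −0.01 over 18 genes, of which 8 were above 0. Within that list Mmp12, the macrophage elastase, had a ratio of −0.44, and Socs3, an inhibitor of cytokine signaling, had 57 and 44 UMIs, a ratio of −0.97.

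Secretory transcripts of the airway and alveolar lining were present at low levels in both libraries. Scgb1a1, the club cell protein, had 124 and 63 UMIs, a ratio of −1.57, and Sftpc, a surfactant protein of type II cells, had 28 and 100, a ratio of 1.24. In the free RNA Scgb1a1 was at 4429 and 352 CPM and Sftpc at 1457 and 5411 CPM, the same directions, and its part in these ratios was not tested. The 17 genes of that list summed to 167 and 140 CPM, against 6495 and 7396 CPM in the free RNA. Epcam, the most abundant gene over both libraries, made up 103 and 82.6 CPM of these sums, against 5.98 and 9.95 CPM in the free RNA. The 9 red cell and platelet genes summed to 45 and 33 UMIs.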
